A study of Mus musculus with 15 samples.

Results

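SOX9-mEGFP spheroids were compared with Halo-NLS control organoids across all genes, in 6 of the 15 poly-A RNA-seq libraries made from mouse small intestinal organoids. All 15 libraries came from primary cultures of female C57BL/6J mice aged 8 to 16 weeks, transduced with lentivirus, grown in Matrigel with IntestiCult medium and harvested 5 days after seeding, and they were taken into the comparison by their labels. The 3 Halo-NLS libraries carried L30prom_V5-Halo-GDGAGLIN-NLS_IRES_Puro, a nuclear HaloTag protein with no SOX9 fused to it. The 3 SOX9-mEGFP spheroid libraries carried L30prom_Sox9-GDGAGLIN-mEGFP-V5_IRES_Puro and, from a second transduction selected with Geneticin, L30prom_H2B-GDGAGLIN-mScarletI-V5_IRES_Neo. In both groups the ribosomal L30 promoter drove the transgene in every cell, and a puromycin resistance gene followed it on the same transcript. The SOX9-mEGFP spheroids derived from 1 stable line that had earlier grown as budding organoids, and they were harvested at a later passage than the Halo-NLS organoids. Line, morphology, the SOX9 transgene, its tag, the second transgene and passage therefore differ together between the groups, and their parts in any difference cannot be told apart. A further 3 libraries of the same line while it still budded (SOX9-mEGFP budding, without the second transgene), and 3 of another spheroid line (SOX9-Halo spheroids, which carried a Sox9-Halo fusion and L30prom_H2B-mEGFP with Zeocin selection), are given where they show how the SOX9-mEGFP spheroids stand beside them.

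SOX9 is a transcription factor of the SRY-related HMG box family. In the small intestine it is made in crypt stem cells, transit-amplifying progenitors and Paneth cells, and it is needed for Paneth cells to form. The adult epithelium is kept by crypt base stem cells whose daughters become absorptive enterocytes or secretory goblet, Paneth, enteroendocrine and tuft cells, under Wnt, Notch, EGF and BMP signals. Organoids made from adult crypts bud, whereas fetal gut cells grow as round spheroids with few differentiated cells and a gene set that includes Ly6a and Clu and returns in adult epithelium after injury.

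Depth was alike across the libraries. The 15 libraries held 28062722 to 40559766 counts on genes and the 6 compared 29136361 to 36466380. In all 15, reads that fell on no gene came to 1.83% to 6.09%, and those ambiguous between genes to 9.65% to 13.6%. Pearson's r of log2 CPM across genes, which are not independent replicates, was 0.983 to 0.990 between the spheroid libraries and 0.960 to 0.971 between the Halo-NLS libraries. The Halo-NLS libraries varied more, also in differentiation genes. Halo-NLS replicate 1 held more of the sucrase-isomaltase transcript Sis than the other two (79944, 11491 and 10806), and Halo-NLS replicate 3 had the most genes with a count (40375, beside 29003 and 24214). Results that turn on 1 of these libraries are given with and without it. The paper calls the 3 libraries of a group biological triplicates, but nothing in the labels says that they came from separate animals or cultures. Each group came from 1 stable line. The p-values therefore measure the spread between these samples and hold no spread between lines.

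Sox9 itself (ENSMUSG00000000567; GRCm39 chromosome 11, 112673009 to 112678586, plus strand) was read first. Values here and throughout are normalized counts, that is, counts divided by TMM-scaled library sizes, which compare a gene between libraries but not genes with each other. Sox9 was at 515, 769 and 305 in the Halo-NLS libraries and 8726, 16922 and 23654 in the spheroid libraries. The lowest spheroid library was above the highest Halo-NLS library, and the spheroid libraries differed among themselves. Sox9 rose (log2 fold change 4.95 ± 0.65, adjusted p = 2.6e-05, from the quasi-likelihood test of edgeR, with p adjusted over all genes tested by the Benjamini-Hochberg method). Here and below ± after a log2 fold change is its standard error, and every adjusted p is from that test unless another is named. The counts do not separate the endogenous gene from the transgene. SOX9-mEGFP budding organoids held 11368, 11086 and 6487 and SOX9-Halo spheroids 10522, 14834 and 14812, and SOX9-mEGFP spheroids were called different from neither (log2 difference 0.77 ± 0.55, adjusted p = 0.36 against budding, log2 difference 0.30 ± 0.55, adjusted p = 0.75 against SOX9-Halo spheroids).

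A gene was called when its adjusted p was at most 0.01, its fold change at least 2 and its mean normalized count at least 10 over all 15 libraries. Of 17560 genes tested, 4823 (27.5%) were called, 2690 higher in the spheroids (15.3%) and 2133 lower (12.1%). The 2 groups of 3 libraries did not overlap for 4811 of the called genes, beside 56.5% of all genes tested. At least 8-fold (3 on the log2 scale) separated the groups for 1622 of the called genes, 900 higher and 722 lower. In 212 of the genes called higher and 235 of those called lower, every library of the lower group held at most 3 reads, so their fold is given as a lower bound against a floor of 3 counts per library. Protein-coding genes made up 4075 of the calls and long noncoding RNAs 618. The balance of directions depended on the scaling: 55.8% of calls were higher with TMM and 53.3% with RLE size factors, but 69.0% with library sizes alone (3333 higher and 1500 lower), which moved the median log2 fold change of all genes from 0.03 to 0.29. The plot of all genes shows both directions reaching the same order of fold change.

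**Figure D1:**
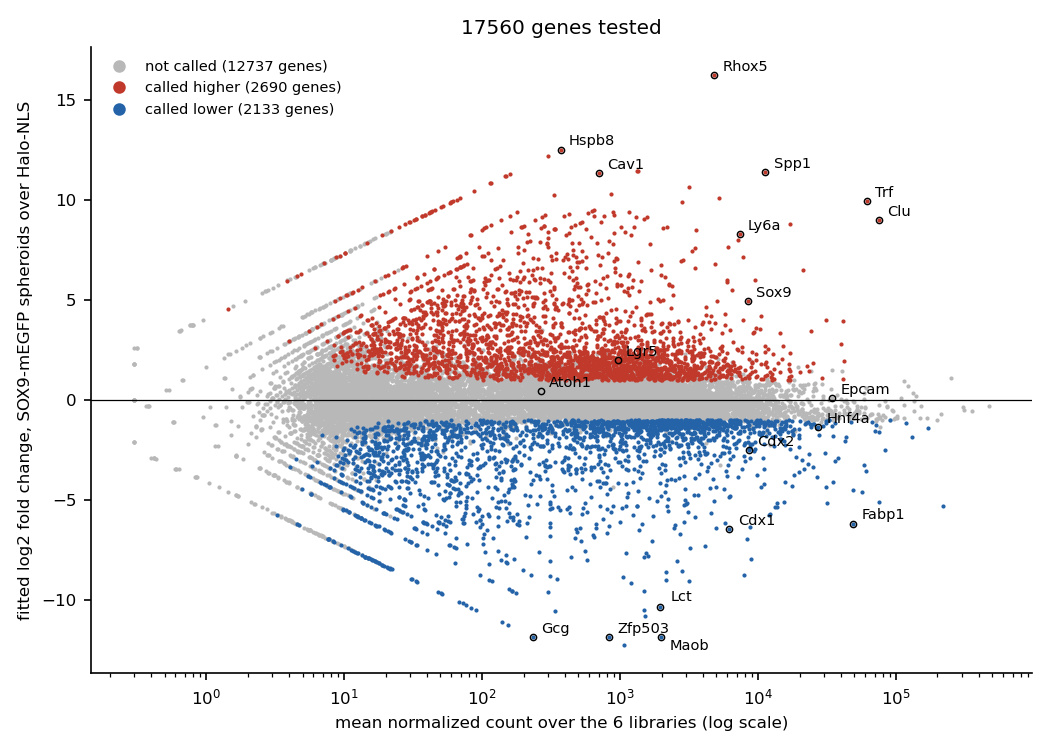
Each point is 1 of the 17560 genes tested, with the mean normalized count over the 6 libraries on a log axis across and the log2 fold change of SOX9-mEGFP spheroids over Halo-NLS organoids upward, and called genes are colored by direction. The 2690 genes called higher and the 2133 called lower both include genes changed over 8-fold at high and at low abundance.

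The largest rises among abundant genes included matrix, membrane and germline genes. Rhox5, a reproductive homeobox gene of the X chromosome that most adult tissues outside the gonads keep silent (chromosome X, 36891636 to 36897311, plus strand), was at 0, 0 and 0 in the Halo-NLS and 10032, 11077 and 7907 in the spheroid libraries (at least 2606-fold higher, adjusted p = 2.3e-08). Spp1 encodes osteopontin, a secreted integrin-binding phosphoprotein, and was at 3.92, 2.30 and 18.9 in the Halo-NLS and 27279, 17772 and 22838 in the spheroid libraries (log2 fold change 11.40 ± 0.69, adjusted p = 2.6e-08). Cav1, the coat protein of caveolae, was at 0, 0 and 1.26 in the Halo-NLS and 1208, 1321 and 1709.6 in the spheroid libraries (at least 381-fold higher, adjusted p = 8.3e-09). All 3 genes were close to or at 0 in every control library and at 1208 or more in every spheroid library. Efemp1, the matrix glycoprotein fibulin-3, was at least 728-fold higher, adjusted p = 7.1e-07, and Chit1, a secreted chitinase best known from macrophages, was at least 716-fold higher, adjusted p = 1.5e-07. The other 5 of the 10 largest rises were Hspb8 (at least 199.8-fold higher), a small heat shock protein, Spata6 (at least 162-fold higher), a gene of sperm formation, Hrct1 (at least 85.6-fold higher), Ly6c1 (at least 79.9-fold higher), a GPI-anchored Ly6 protein, and Itm2a (at least 62.8-fold higher), a membrane protein.

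Among the most abundant genes called higher, Trf and Clu changed most. Clu encodes clusterin, a secreted chaperone and a marker of cells that revive the epithelium after damage, and was at 142, 215 and 525 in the Halo-NLS and 158691, 128211 and 161244 in the spheroid libraries (log2 fold change 8.99 ± 0.63, adjusted p = 9.3e-08). Trf, the iron carrier transferrin, is a liver product in the adult, and was at 88.9, 151 and 134 in the Halo-NLS and 104193, 129737 and 133849.6 in the spheroid libraries (log2 fold change 9.94 ± 0.50, adjusted p = 7.0e-09). Neither gene's groups came near each other. Krt18, a keratin of simple epithelia, rose by less (log2 fold change 1.93 ± 0.23, adjusted p = 9.8e-06), as did Ly6e, another Ly6 protein (log2 fold change 3.95 ± 0.29, adjusted p = 1.5e-07). Anxa2, a membrane-binding annexin, lay close to the threshold (log2 fold change 1.04 ± 0.25, adjusted p = 0.0030), and its call was lost with RLE size factors, in DESeq2, with the 6 libraries alone and without SOX9-mEGFP spheroid replicate 2 or Halo-NLS replicate 3.

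The largest falls took in hormones, digestive and detoxifying enzymes and an antimicrobial product. Gip, the glucose-dependent insulinotropic peptide of K cells (chromosome 11, 95909127 to 95921657, plus strand), was at 3484, 4006 and 1584 in the Halo-NLS and 1.77, 1.00 and 1.90 in the spheroid libraries (at least 1065-fold lower, adjusted p = 1.7e-07). Gcg, which encodes the GLP-1 precursor of L cells, was at 707, 537 and 159.6 in the Halo-NLS and 0, 0 and 0 in the spheroid libraries (at least 165-fold lower, adjusted p = 2.1e-05). Both hormones were listed in every control library and were near or at 0 in every spheroid library. Lct, lactase of the enterocyte brush border, was at 2759, 5990.0 and 2974 in the Halo-NLS and 5.32, 1.00 and 1.90 in the spheroid libraries (log2 fold change -10.38 ± 0.73, adjusted p = 9.1e-08), and Ang4, an angiogenin stored in Paneth cell granules, was at 4250.2, 2637 and 2006 in the Halo-NLS and 3.55, 1.00 and 0.952 in the spheroid libraries (log2 fold change -10.53 ± 0.70, adjusted p = 6.0e-08). Cyba, the p22phox subunit of NADPH oxidases, was at least 758-fold lower, adjusted p = 3.1e-08, and Maob, a monoamine-degrading enzyme of the outer mitochondrial membrane, was at least 1398-fold lower, adjusted p = 1.6e-06. The remaining 4 of the 10 largest falls were Zfp503 (at least 584-fold lower), a zinc-finger repressor, Fam111a (at least 98.2-fold lower), a protease, Cyp2c37 (at least 236-fold lower), a cytochrome P450, and Cnpy1 (at least 124-fold lower).

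The most abundant genes called lower included genes of respiration and translation. Mt1, a zinc-binding metallothionein, was at 267108, 215075 and 129137 in the Halo-NLS and 63496, 41344 and 65042 in the spheroid libraries (log2 fold change -1.85 ± 0.30, adjusted p = 2.0e-04), and mt-Nd1, a complex I subunit encoded in mitochondrial DNA, fell as well (log2 fold change -1.40 ± 0.26, adjusted p = 5.8e-04). Both were lower by less than the genes above. Rplp1, a ribosomal stalk protein, and Atp5f1a, the alpha subunit of ATP synthase, lay close to the threshold (log2 fold change -1.15 ± 0.24, adjusted p = 0.0011, and log2 fold change -1.01 ± 0.20, adjusted p = 8.9e-04). The Rplp1 call was lost with library sizes alone, after removal of a trend with GC content and without Halo-NLS replicate 3. The Atp5f1a call was lost with library sizes alone, without a filter and without Halo-NLS replicate 2 or 3 or SOX9-mEGFP spheroid replicate 2 or 3.

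**Figure D2:**
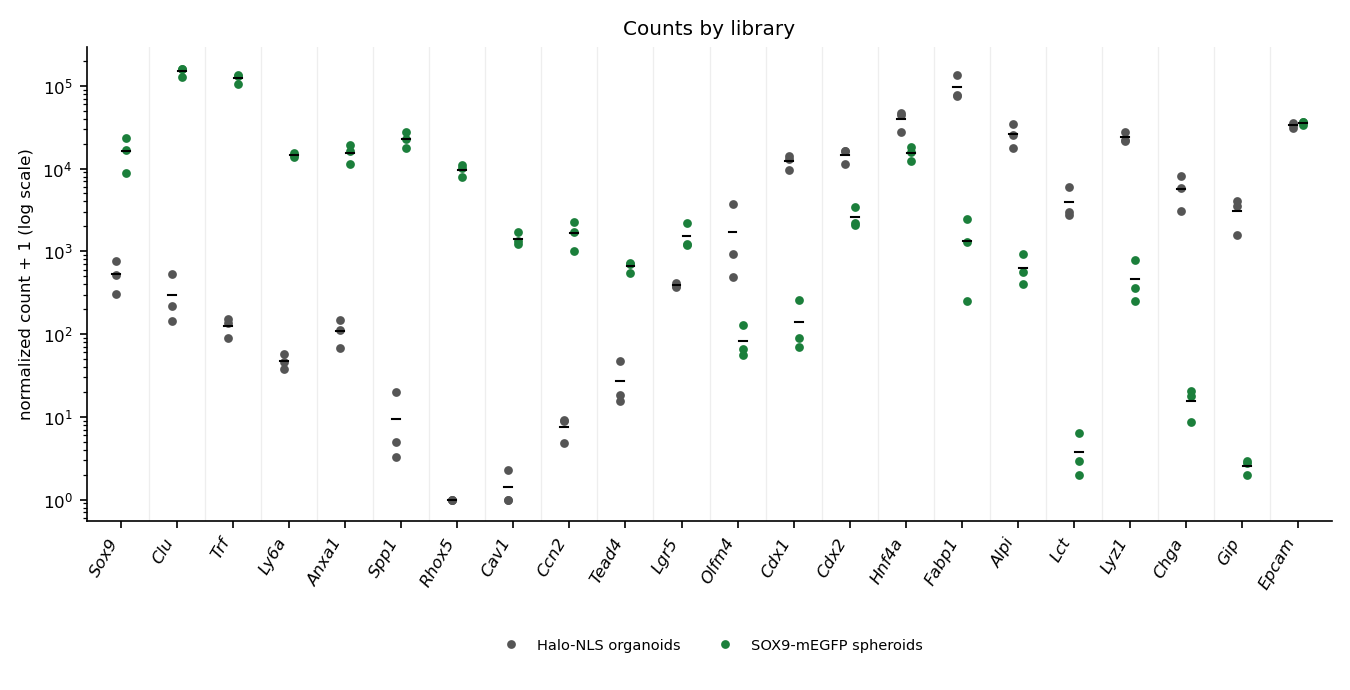
Normalized counts plus 1, on a log axis, of 22 genes named in the text in each of the 3 Halo-NLS libraries and the 3 SOX9-mEGFP spheroid libraries, 1 point per library. Clu, Trf, Ly6a, Anxa1, Spp1, Rhox5, Cav1 and Ccn2 lie higher in all spheroid libraries, Fabp1, Alpi, Lct, Lyz1, Chga and Gip lower, and Epcam at one level in all 6.

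Promoters of 3 of these genes are shown because they stand for the groups that follow: Clu for fetal-like markers, Fabp1 and Alpi for enterocyte genes. The 3 were chosen after their values had been seen. Each run is the 250 bases of GRCm39 before the annotated start, on the gene's strand, at chr14:66205676-66205925 (plus) for Clu, chr6:71176559-71176808 (plus) for Fabp1 and chr1:87029329-87029578 (minus) for Alpi. Capitals mark matches on either strand to TTTATNG (CDX) or CAAAGTNCA (HNF4). The search also covered GGAATG (TEAD), TGANTCA (AP-1), AACAATGG (SOX) and GGGNGTGG (KLF and SP factors), which match in none of the 3.
Clu: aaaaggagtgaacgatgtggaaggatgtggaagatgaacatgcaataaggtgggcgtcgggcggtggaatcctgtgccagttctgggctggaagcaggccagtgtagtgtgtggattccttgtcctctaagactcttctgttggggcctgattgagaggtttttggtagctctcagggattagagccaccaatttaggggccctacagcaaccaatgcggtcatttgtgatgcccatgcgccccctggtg
Fabp1: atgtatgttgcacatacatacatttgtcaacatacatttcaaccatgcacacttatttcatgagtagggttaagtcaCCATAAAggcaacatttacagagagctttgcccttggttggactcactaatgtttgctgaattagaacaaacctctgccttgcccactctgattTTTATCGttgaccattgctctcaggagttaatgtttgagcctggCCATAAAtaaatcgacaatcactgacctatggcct
Alpi: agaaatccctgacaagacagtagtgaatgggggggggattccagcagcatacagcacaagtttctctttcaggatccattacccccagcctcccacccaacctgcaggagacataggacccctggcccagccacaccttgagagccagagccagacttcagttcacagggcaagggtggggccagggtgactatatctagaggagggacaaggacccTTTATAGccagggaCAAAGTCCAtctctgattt

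The Fabp1 window holds 3 CDX matches and the Alpi window 1 CDX and 1 HNF4 match, whereas the Clu window holds none of the 6. Other windows read did not divide in this way. That of Cav1, which rose, holds a CDX match, and those of Lct and Chga, which fell, hold none of the 6. Over the 17551 promoters of tested genes the TEAD letters were present in 11.7% of all, 12.6% of those called higher and 12.0% of those called lower. AP-1 letters were present in 5.29%, 6.32% and 5.20%, CDX letters in 7.97%, 7.70% and 8.95%, and HNF4 letters in 1.20%, 1.15% and 1.92%. SOX letters were present in 0.593%, 0.744% and 0.516%, and KLF and SP letters in 18.2%, 19.5% and 18.2%. These shares describe letters, not binding, and were not tested.

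Transcription factors that set intestinal identity fell more often than they rose. Of 21 of 22 listed factors tested, 3 rose and 11 fell, beside 15.3% and 12.1% of all genes (median log2 fold change -1.48). Cdx2, the homeobox factor that specifies intestine (chromosome 5, 147237615 to 147244091, minus strand), was at 11483, 16398 and 16244 in the Halo-NLS and 3469, 2193 and 2066 in the spheroid libraries (log2 fold change -2.51 ± 0.25, adjusted p = 1.7e-06). Its paralog Cdx1 was at 9656, 13182 and 14023 in the Halo-NLS and 260.0, 89.1 and 68.6 in the spheroid libraries (log2 fold change -6.46 ± 0.53, adjusted p = 3.5e-07). Both CDX genes were lower in every spheroid library, Cdx1 by far more. The nuclear receptors of enterocyte genes followed: Hnf4g was at 9793, 4349 and 1625 in the Halo-NLS and 1073, 523 and 249 in the spheroid libraries (log2 fold change -3.09 ± 0.65, adjusted p = 0.0013), and Hnf4a, which shares its sites, changed least of the 11 (log2 fold change -1.36 ± 0.24, adjusted p = 3.7e-04). Others that fell were Vdr (-4.46 ± 0.37), the vitamin D receptor, Creb3l3 (-3.57 ± 0.53), an activator of apolipoprotein genes, Gata4 (-1.63 ± 0.26) and Gata6 (-1.48 ± 0.28), and the bile acid and xenobiotic receptors Nr1h4 (-2.55 ± 0.45) and Nr1i2 (-2.27 ± 0.36). The 3 that rose were Prdm1 (2.90 ± 0.36), a repressor of the suckling-stage epithelium, Pdx1 (1.69 ± 0.34), a factor of duodenum and pancreas, and Klf4 (1.46 ± 0.34), a factor of goblet and surface cells whose call was lost with the 6 libraries alone and without SOX9-mEGFP spheroid replicate 3.

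Absorptive genes fell more often than they rose. Of 17 digestive enzymes of the brush border tested, 11 fell and 6 were not called (median log2 fold change -2.87), and of 26 nutrient transporters 3 rose and 16 fell (median log2 fold change -2.62). Alpi, the intestinal alkaline phosphatase, was at 25206, 34387 and 17881 in the Halo-NLS and 930.1, 555 and 400.0 in the spheroid libraries (log2 fold change -5.36 ± 0.54, adjusted p = 2.1e-06). Sis, the sucrase-isomaltase that splits disaccharides, was at 79944, 11491 and 10806 in the Halo-NLS and 3576, 3124 and 1018 in the spheroid libraries (log2 fold change -3.73 ± 0.84, adjusted p = 0.0022). The control libraries differ from each other in Sis, and its call was lost without Halo-NLS replicate 1 (log2 fold change -2.11, adjusted p = 0.013), without SOX9-mEGFP spheroid replicate 3 (adjusted p = 0.013) and with the 6 libraries alone (adjusted p = 0.0103). Other enzymes that fell were Enpep (-7.66 ± 0.76) and Treh (-5.22 ± 0.51), an aminopeptidase and the trehalase. Anpep, another abundant aminopeptidase, was not called (log2 difference -1.29 ± 0.38, adjusted p = 0.012).

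Among the transporters Slc5a1, which brings glucose in with sodium, was at 57520.5, 85053 and 42353 in the Halo-NLS and 3237, 1478 and 565 in the spheroid libraries (log2 fold change -5.13 ± 0.69, adjusted p = 3.2e-05). The neutral amino acid carriers Slc6a19 (-7.38 ± 0.51) and Slc6a20a (-7.58 ± 0.77) and the fructose carrier Slc2a5 (-7.33 ± 0.50) were lower, and so was Slc46a1 (-4.15 ± 0.35), which takes up folate and heme. The 3 that rose were Slc10a2 (4.86 ± 0.52), the ileal bile acid carrier, Slc39a4 (2.57 ± 0.31), a zinc carrier, and Slc1a1 (1.87 ± 0.32), a glutamate carrier. Genes that build the microvillus went both ways: of 19 tested 2 rose and 8 fell, with Pdzk1 (-6.05 ± 1.13) and Espn (-4.39 ± 0.39) lower and Eps8 (1.79 ± 0.31) and Myo6 (1.51 ± 0.39) higher. The falls came to 4 without SOX9-mEGFP spheroid replicate 2 or 3 and to 5 without Halo-NLS replicate 2. The Myo6 call was lost without any 1 of these 3 libraries or Halo-NLS replicate 3 and after GC correction, and with the 6 libraries alone both rises were lost. Vil1, villin itself, was not called (log2 difference -0.88 ± 0.26, adjusted p = 0.012).

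Genes of fat handling fell in most cases. Of 26 genes of dietary fat absorption and chylomicron formation tested, 20 fell and 6 were not called (median log2 fold change -2.77). Fabp1, the fatty acid binding protein shared with liver, was at 136624, 77925 and 74114 in the Halo-NLS and 2437, 1279 and 250.5 in the spheroid libraries (log2 fold change -6.19 ± 0.85, adjusted p = 3.8e-05). Apoa1, the main HDL apolipoprotein, was at 40970.5, 39618 and 30934 in the Halo-NLS and 5533, 5548 and 2729 in the spheroid libraries (log2 fold change -3.01 ± 0.55, adjusted p = 4.6e-04). Both genes were lower in each spheroid library than in each control library. Fabp2 (-5.03 ± 0.56) and Mttp (-3.22 ± 0.49), which loads lipid onto apolipoprotein B, fell as well. Among 26 genes of fatty acid oxidation and ketogenesis, 16 fell and 10 were not called (median log2 fold change -1.23), led by Hadh (-2.72 ± 0.29) and including Hadha (-1.28 ± 0.26).

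Detoxifying enzymes were lower in larger numbers than higher. Of 46 of 94 listed cytochrome P450 genes tested, 8 rose and 26 fell (median log2 fold change -2.32, or -2.15 with genes at a bound set to it), Cyp2c38 (at least 159.7-fold lower) and the abundant Cyp4f14 (-3.58 ± 0.49) among the falls. The largest rise among them was Cyp1b1 (8.65 ± 1.22), which acts on estrogens and polycyclic hydrocarbons, and the count of rises came to 5 without Halo-NLS replicate 1. Of 55 conjugating enzymes and carboxylesterases tested, 2 rose and 28 fell (median log2 fold change -1.59), with Ugt1a9 (-5.42 ± 0.84) a glucuronidating and Gstm1 (-3.57 ± 0.60) and Gstm3 (-4.53 ± 0.64) glutathione-conjugating examples. Sult1a1 (3.74 ± 0.60), a sulfotransferase, rose, and the rises came to 1 without any 1 library other than Halo-NLS replicate 1. P450, glutathione transferase and UGT genes sit in clusters of near-identical copies, which unique alignment may leave partly uncounted.

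Glycolytic and cholesterol genes moved in few members. Of 21 glycolytic enzymes tested, 2 rose and 2 fell (median log2 fold change -0.37): Pfkl (-1.02 ± 0.29) was among the falls, and Hk1 (1.79 ± 0.38) and Hk2 (1.89 ± 0.29), the hexokinases, rose. The Pfkl call was lost without any 1 library other than Halo-NLS replicate 1, with library sizes alone, without a filter and after GC correction. Cholesterol genes gave 3 rises and 2 falls among 23 tested (median 0.23), with Sqle (1.16 ± 0.19) up and Tm7sf2 (-2.12 ± 0.24) down. The rises came to 1 without SOX9-mEGFP spheroid replicate 2 or Halo-NLS replicate 2 or 3, and the falls to 1 without Halo-NLS replicate 3. The respiratory chain leaned lower. Of its 84 nuclear genes tested 1 rose and 40 fell (median log2 fold change -1.01), led by Cox7a1 (-2.72 ± 0.53) and Ndufv1 (-2.02 ± 0.20), and the 1 that rose was Cox6b2 (3.80 ± 0.54), a testis isoform. With library sizes alone the fall count was 19. Of the 13 genes encoded in mitochondrial DNA, 6 fell and 7 were not called (median log2 fold change -1.24), and that count came to 3 without SOX9-mEGFP spheroid replicate 3 or Halo-NLS replicate 1, to 1 with the 6 libraries alone and to 13 after removal of a GC trend. Cytoplasmic ribosomal proteins gave 6 falls among 79 tested (median -0.76), a count that ran from 0 without Halo-NLS replicate 3 to 28 without Halo-NLS replicate 2.

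Genes of hormone-producing cells were among the most reduced. Of 20 enteroendocrine hormones and granins tested, 1 rose and 16 fell (median log2 fold change -6.09, or -5.56 with genes at a bound set to it). Chga, the granin of secretory granules, was at 5815, 8074 and 3042 in the Halo-NLS and 19.5, 17.0 and 7.62 in the spheroid libraries (log2 fold change -8.57 ± 0.82, adjusted p = 1.4e-06). Chgb (-8.74 ± 0.81), Cck (-9.15 ± 0.86), Sst (at least 117-fold lower) and Tac1 (at least 244-fold lower) fell with it. The 1 that rose was Cpe, a carboxypeptidase that many cells make (log2 fold change 2.33 ± 0.36, adjusted p = 1.0e-04). Of 20 factors of the secretory lineages as a whole, 10 fell and 10 were not called (median log2 fold change -1.26). Those that fell included the enteroendocrine factors Neurog3 (-5.35 ± 0.56), Isl1 (at least 8.19-fold lower) and Nkx2-2 (-6.18 ± 0.63). The summed level of the list was 18462 to 24238 in the Halo-NLS and 23169 to 26029 in the spheroid libraries. In bulk RNA, fewer cells of a type and less RNA per cell cannot be told apart. Atoh1, a factor that starts secretory fates, was at 225, 251 and 205 in the Halo-NLS and 335, 244 and 340.0 in the spheroid libraries. It was not called (log2 difference 0.43 ± 0.29, adjusted p = 0.22), and its groups overlapped.

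Paneth cell products mostly fell. Of 17 of 51 listed products tested, 2 rose and 11 fell (median log2 fold change -6.17, or -3.91 with genes at a bound set to it). Lyz1, lysozyme of Paneth granules, was at 27535, 22349 and 21589 in the Halo-NLS and 780.1, 362 and 251 in the spheroid libraries (log2 fold change -5.68 ± 0.43, adjusted p = 1.7e-07). Itln1, an intelectin that binds microbial sugars, was at 19493, 16919.9 and 16652 in the Halo-NLS and 69.2, 58.1 and 88.6 in the spheroid libraries (log2 fold change -7.94 ± 0.39, adjusted p = 5.7e-09). Every spheroid library was far below every control library for both. Defa24 (-6.41 ± 0.35) and other alpha-defensins fell, and since defensin genes are near-identical copies their counts are uncertain. The 2 that rose were Mmp7, the matrilysin that activates defensins and is also made by injured epithelia, at 571, 458 and 371 in the Halo-NLS and 44544, 43802 and 37133 in the spheroid libraries (log2 fold change 6.49 ± 0.30, adjusted p = 3.3e-09), and Habp2 (4.29 ± 0.33), a serine protease. REG lectins gave 1 rise and 3 falls among 6 tested (median -3.11, or -2.58 with bounds), with Reg4 (-8.04 ± 0.71) and Reg3a (-8.85 ± 1.27) lower and Reg3g (3.87 ± 0.58) higher.

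Goblet and tuft genes were called about as often as genes in general, in 23.1% and 27.3% of members tested beside 27.5% of all genes. Of 13 goblet products tested, 2 rose and 1 fell (median log2 fold change -0.18), and the rise count was 1 without SOX9-mEGFP spheroid replicate 1. Muc2, the gel-forming mucin, was at 7712, 20645 and 618 in the Halo-NLS and 114, 897 and 1983 in the spheroid libraries and not called (log2 difference -3.27 ± 1.22, adjusted p = 0.037). Muc1 (3.43 ± 0.61), a membrane mucin, and Sytl2 (2.67 ± 0.39) rose, and Guca2a (-1.93 ± 0.37), the guanylin precursor, fell. Of 11 tuft markers tested, 2 rose and 1 fell (median log2 fold change 0.44). Plcg2 (4.51 ± 0.44) and Ptgs1 (5.55 ± 0.34), a phospholipase and cyclooxygenase 1, rose, and the fall was lost without any 1 library. Dclk1, the microtubule kinase that marks tuft cells, was at 24.8, 32.1 and 11.3 in the Halo-NLS and 24.0, 35.0 and 34.3 in the spheroid libraries and not called (log2 difference 0.44 ± 0.85, adjusted p = 0.68).

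**Figure D3:**
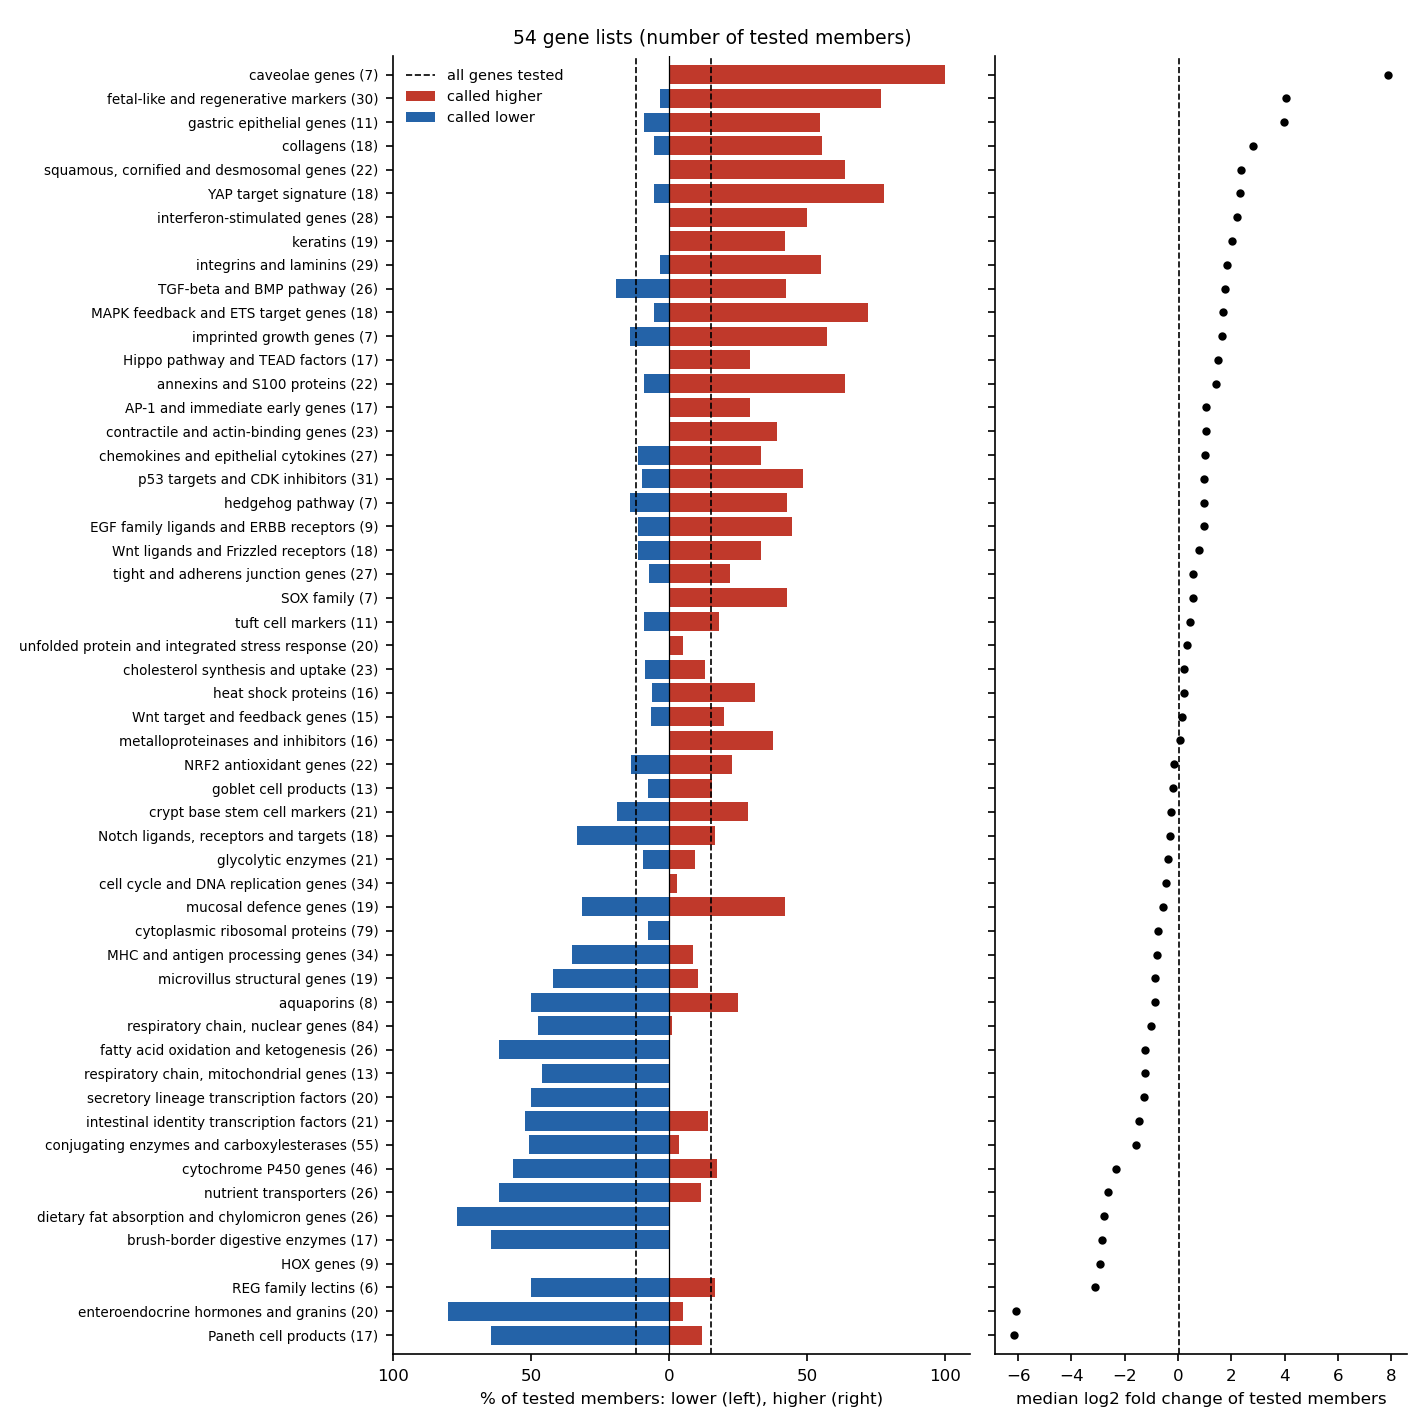
Left, the share of tested members of each of 54 gene lists called lower (bars to the left) and higher (bars to the right) in SOX9-mEGFP spheroids against Halo-NLS organoids, with dashed lines at the shares over all 17560 genes (12.1% and 15.3%). Right, the median log2 fold change of the tested members, with the dashed line at the median of all genes, 0.03; enteroendocrine, absorptive and detoxifying lists lie lowest and caveolae, fetal-like and gastric lists highest.

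Stem cell and Wnt genes went in both directions. Of 21 crypt base stem cell markers tested, 6 rose and 4 fell (median log2 fold change -0.27), and the rise count came to 3 without SOX9-mEGFP spheroid replicate 3 or Halo-NLS replicate 2 or 3. Lgr5, the R-spondin receptor that marks these cells, was at 379, 372 and 411 in the Halo-NLS and 1205, 1219.6 and 2189 in the spheroid libraries (log2 fold change 1.99 ± 0.54, adjusted p = 0.0073), but its call was lost when any 1 of the 6 libraries was left out (adjusted p = 0.010 to 0.035) and after GC correction (log2 fold change 1.60, adjusted p = 0.021). Olfm4, a secreted marker of the same cells, was at 920.1, 484 and 3726 in the Halo-NLS and 65.7, 126 and 55.2 in the spheroid libraries and missed the threshold (log2 difference -4.38 ± 1.38, adjusted p = 0.017), though it was called in DESeq2, after GC correction, without a filter and with the 6 libraries alone. Cd44 (5.89 ± 0.55), a hyaluronan receptor, and Prom1 (2.70 ± 0.25) were higher, and Smoc2 (-5.59 ± 0.83) and Aqp4 (at least 217-fold lower) lower. Wnt targets gave 3 rises and 1 fall among 15 tested (median 0.15), with Ccnd1 (2.17 ± 0.34) up and Apcdd1 (-5.83 ± 0.55) down. The share called, 26.7%, was close to the 27.5% of all genes. Ligands and receptors of the Wnt pathway gave 6 rises and 2 falls among 18 tested (median 0.78), with Wnt7b (at least 143-fold higher) and Fzd3 (at least 36.8-fold higher) up and Wnt3, the Paneth cell ligand, down (log2 fold change -6.24 ± 0.49, adjusted p = 7.0e-07).

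Notch, EGF, MAPK, hedgehog and BMP genes were read in the same way. Notch genes gave 3 rises and 6 falls among 18 tested (median -0.31). Dll1, the ligand of early secretory cells, was at 1102, 1914 and 1267 in the Halo-NLS and 123.4, 65.1 and 47.6 in the spheroid libraries (log2 fold change -4.18 ± 0.36, adjusted p = 5.0e-07), Dll4 (-3.51 ± 0.44) fell too, and Notch3 (3.60 ± 0.45) and Dtx1 (6.11 ± 0.57) rose. Hes1, a Notch target that holds back Atoh1, was not called (log2 difference -0.89 ± 0.22, adjusted p = 0.0041). The Notch rise count was 5 without Halo-NLS replicate 1. EGF ligands and ERBB receptors gave 4 rises and 1 fall among 9 tested (median 0.96), with Hbegf (3.00 ± 0.22) and Tgfa (1.47 ± 0.40) higher and Nrg4 (-3.29 ± 0.61) lower, and the rises came to 2 without SOX9-mEGFP spheroid replicate 2 or 3. MAPK feedback and ETS target genes gave 13 rises and 1 fall among 18 tested (median 1.70), led by Spry4 (5.43 ± 0.44) and Epha4 (4.69 ± 0.46), with Phlda1 (2.90 ± 0.31) and Dusp6 (1.80 ± 0.20) higher as well. Hedgehog genes gave 3 rises and 1 fall among 7 tested (median 0.98): Ptch1 (1.69 ± 0.30), the receptor and target, rose and Ihh (-2.56 ± 0.47), the epithelial ligand, fell. TGF-beta and BMP genes gave 11 rises and 5 falls among 26 tested (median 1.75), with Bmp4 (at least 23.4-fold higher) and Id2 (2.93 ± 0.34) higher and Smad6 (-3.99 ± 0.42) lower.

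Markers of the fetal-like and regenerating epithelium rose in most cases. Of 30 of 32 listed markers tested, 23 rose and 1 fell (median log2 fold change 4.04), and the summed level of the list was 87952 to 112634 in the Halo-NLS and 498161 to 548275 in the spheroid libraries. This list was chosen with earlier results of these data known. It holds Ly6a, Clu and Anxa1, which the study used to describe its spheroids, so its counts are a description. Ly6a, which encodes the surface protein Sca-1 (chromosome 15, 74863840 to 74869880, minus strand), was at 44.4, 36.7 and 56.6 in the Halo-NLS and 14705, 15557 and 13783 in the spheroid libraries (log2 fold change 8.32 ± 0.65, adjusted p = 2.3e-07). Anxa1, an annexin of injured epithelium, was at 111, 67.7 and 146 in the Halo-NLS and 16220.0, 19138 and 11229.9 in the spheroid libraries (log2 fold change 7.17 ± 0.67, adjusted p = 1.1e-06). For both genes no spheroid library came near a control library. Il33 (7.49 ± 0.47), an alarmin, Ctse (9.14 ± 0.54), a cathepsin of stomach, Basp1 (9.08 ± 0.85) and Msln (5.51 ± 0.73), mesothelin, rose as well. The 1 that fell was Igf2bp3 (-4.47 ± 0.58), an RNA-binding protein of fetal tissue, and the falls came to 3 without Halo-NLS replicate 1 and to 2 without Halo-NLS replicate 2.

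Hippo pathway genes gave 5 rises among 17 tested (median 1.49), and the rise count was 9 without Halo-NLS replicate 1 and 8 in DESeq2. Tead4, a DNA-binding partner of YAP, was at 14.4, 17.2 and 46.5 in the Halo-NLS and 548, 717 and 702 in the spheroid libraries (log2 fold change 4.65 ± 0.42, adjusted p = 8.6e-07), and Wwtr1 (5.65 ± 0.46), which encodes TAZ, rose. Yap1 was at 2040.2, 2458 and 1756 in the Halo-NLS and 3022, 2707 and 3587 in the spheroid libraries and was not called (log2 difference 0.57 ± 0.18, adjusted p = 0.018). Of 18 genes of a YAP target signature, 14 rose and 1 fell (median log2 fold change 2.33). Ccn2, a secreted matricellular protein and the standard target of YAP and TEAD, was at 7.84, 8.03 and 3.77 in the Halo-NLS and 1005, 1711 and 2279 in the spheroid libraries (log2 fold change 7.96 ± 0.67, adjusted p = 4.3e-07). Myof (7.63 ± 0.33), Ptpn14 (7.12 ± 0.72), F3 (4.33 ± 0.49) and Ankrd1 (4.37 ± 0.60) rose with it and Fjx1 (-3.54 ± 0.57) fell. Ccn1 rose by less (log2 fold change 1.31 ± 0.37, adjusted p = 0.0092), and its call was lost with RLE size factors, with the 6 libraries alone and without any 1 library other than SOX9-mEGFP spheroid replicate 1. Without Halo-NLS replicate 1 the signature had 2 falls. AP-1 and immediate early genes gave 5 rises among 17 tested (median 1.05), with Fos (2.88 ± 0.33) and Klf6 (1.91 ± 0.35) higher, a count that came to 3 without SOX9-mEGFP spheroid replicate 3 or Halo-NLS replicate 1 or 3.

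Genes for matrix and adhesion rose more often than they fell. Of 29 integrins and laminins tested, 16 rose and 1 fell (median log2 fold change 1.85), led by Lama3 (6.89 ± 0.67) and Lamb1 (6.19 ± 0.59) and including Lama5, the laminin alpha chain of epithelial basement membrane, at 192, 420.0 and 251 in the Halo-NLS and 9384, 18421 and 28242 in the spheroid libraries (log2 fold change 6.02 ± 0.58, adjusted p = 1.4e-06). Itgb7 (-2.84 ± 0.51), an integrin of lymphocytes that home to the gut, fell. Collagens gave 10 rises and 1 fall among 18 tested (median 2.81, or 2.72 with bounds). Col4a1 and Col4a2, the chains of basement membrane collagen, rose together (log2 fold changes 7.45 ± 0.94 and 8.51 ± 0.95), with Col18a1 (7.66 ± 0.42). Metalloproteinases and their inhibitors gave 6 rises among 16 tested (median 0.08), with Adamts1 (7.67 ± 0.73) and Timp1 (at least 28.9-fold higher) higher. Col4a1 was at 13.1, 20.7 and 79.2 in the Halo-NLS and 5423, 6148 and 8192 in the spheroid libraries, so that no library of one group reached the other. The 1 collagen fall came to none without SOX9-mEGFP spheroid replicate 2 or 3 or Halo-NLS replicate 3 and to 2 without either other Halo-NLS library.

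Caveolae, actin-binding, annexin and S100 genes rose more often than they fell, beside 15.3% and 12.1% of all genes. Aquaporins fell more often than they rose. All 7 caveolae genes tested rose (median log2 fold change 7.90, or 6.83 with genes at a bound set to it), including Cav2 (8.65 ± 0.60), Cavin1 (1.72 ± 0.31) and Cavin3 (at least 31.9-fold higher). Contractile and actin-binding genes gave 9 rises among 23 tested (median 1.03), with Pls3 (7.07 ± 0.55) and Cald1 (5.47 ± 0.85) highest, and annexins and S100 proteins gave 14 rises and 2 falls among 22 tested (median 1.42), with S100a6 (3.60 ± 0.26) and S100a11 (4.23 ± 0.43) higher and S100g (-9.003 ± 0.63), the vitamin D-dependent calbindin of enterocytes, lower. Tight and adherens junction genes gave 6 rises and 2 falls among 27 tested (median 0.57). The share called, 29.6%, was close to the 27.5% of all genes. Tjp1 (3.17 ± 0.54) and Cldn2 (1.53 ± 0.15) rose and Cldn15 (-5.74 ± 0.66) fell. Aquaporins gave 2 rises and 4 falls among 8 tested (median -0.88), with Aqp5 (at least 229-fold higher) higher and Aqp3 (-4.51 ± 0.69) lower. The junction falls came to 1 without SOX9-mEGFP spheroid replicate 2 or Halo-NLS replicate 2, and the same libraries took the aquaporin rises to 1.

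Most gastric and squamous genes tested rose, and most keratins and SOX genes were not called. Of 11 of 17 listed gastric epithelial genes tested, 6 rose and 1 fell (median log2 fold change 3.97). The rest had too few reads to be tested. Among them, Sox2 and Barx1 had 0 reads in each of the 6 libraries, and Muc5ac had 1, 1 and 3 in the Halo-NLS and 0, 1 and 5 in the spheroid libraries. Vsig1, a junction protein of the stomach, was at 5.23, 0 and 6.29 in the Halo-NLS and 6603, 5714 and 6520.2 in the spheroid libraries (log2 fold change 10.67 ± 0.62, adjusted p = 2.0e-08), and Pgc (5.66 ± 0.57), Gkn1 (4.74 ± 0.64) and Anxa10 (3.97 ± 0.46) rose. The gene that fell was Ghrl (-5.11 ± 0.63), the ghrelin precursor, which the hormone list holds too. Squamous, cornified and desmosomal genes gave 14 rises among 22 of 38 listed that were tested (median 2.36), with Dsg3 (10.09 ± 0.57), Ivl (at least 24.8-fold higher) and Tgm1 (at least 10.6-fold higher) the largest and Dsp (2.42 ± 0.41) among the abundant. Trp63, not tested, had 3, 0 and 18 reads in the Halo-NLS and 7, 1 and 1 in the spheroid libraries. Keratins gave 8 rises among 19 of 55 listed that were tested (median 2.03). Krt6a (at least 14.4-fold higher) and Krt14 (5.21 ± 0.75) are keratins of stratified epithelia, and Krt20, a keratin of differentiated gut cells, was not called (log2 difference -1.40 ± 0.50, adjusted p = 0.030). Of 7 SOX genes tested 3 rose and 4 were not called, the other two being Sox6 (2.43 ± 0.34) and Sox21 (1.45 ± 0.28). None of 9 HOX genes tested was called by edgeR's quasi-likelihood test (median log2 fold change -2.92, or -1.05 with genes at a bound set to it), 3 had an unadjusted p below 0.05, and DESeq2 called 1 higher.

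Growth genes were mixed. Of 34 cell cycle and DNA replication genes tested, 1 rose and 33 were not called (median log2 fold change -0.44): Ccnd2, cyclin D2, was at 4517, 3484 and 4381 in the Halo-NLS and 41760.0, 47795 and 44003 in the spheroid libraries (log2 fold change 3.43 ± 0.20, adjusted p = 2.2e-08). Mki67, the proliferation antigen, was at 2258, 578 and 667 in the Halo-NLS and 953, 2189.9 and 4328 in the spheroid libraries and not called (log2 difference 1.09 ± 0.81, adjusted p = 0.27). Targets of p53 and inhibitors of cyclin-dependent kinases leaned higher, with 15 rises and 3 falls among 31 tested (median 0.98). Cdkn2a, which encodes p16 and p19Arf, was at 1.31, 2.30 and 3.77 in the Halo-NLS and 1553, 1912 and 1129 in the spheroid libraries (at least 413-fold higher, adjusted p = 1.7e-09). Ccng1 (2.52 ± 0.36) and Zmat3 (1.77 ± 0.38), both p53 targets, rose, while Cdkn1c (-4.22 ± 0.46) fell, and the falls came to 1 without SOX9-mEGFP spheroid replicate 2 or Halo-NLS replicate 1 or 2. Cdkn1a, which encodes p21, was at 14609, 14639 and 11092 in the Halo-NLS and 10358, 7181 and 9711 in the spheroid libraries (log2 difference -0.57 ± 0.33, adjusted p = 0.17), and Trp53 at 3829, 5144 and 5804 in the Halo-NLS and 2794, 2551 and 3987 in the spheroid libraries (log2 difference -0.66 ± 0.28, adjusted p = 0.063), and neither was called. Imprinted growth genes gave 4 rises and 1 fall among 7 tested (median 1.67), with Plagl1 (3.48 ± 0.52) up and H19 (-6.85 ± 1.27) down, and the rises came to 2 without SOX9-mEGFP spheroid replicate 2 or Halo-NLS replicate 3.

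Defense genes split by kind. Interferon-stimulated genes gave 14 rises among 28 tested (median 2.23). Oas1g, an activator of RNase L, was at 0, 0 and 0 in the Halo-NLS and 79.0, 83.1 and 110.5 in the spheroid libraries (at least 24.5-fold higher, adjusted p = 1.7e-06), and Mx1 (at least 12.5-fold higher), Rsad2 (4.08 ± 0.82) and Usp18 (at least 11.3-fold higher) rose. MHC and antigen processing genes leaned the other way, with 3 rises and 12 falls among 34 tested (median -0.77): H2-T3 (-7.66 ± 0.60) and H2-Ab1 (at least 22.3-fold lower) fell and Cd74 (at least 14.1-fold higher), the invariant chain, rose. The class I genes of mouse are near-identical copies, and the MHC rises came to 1 without SOX9-mEGFP spheroid replicate 2 or 3 and to 6 after GC correction. Mucosal defense genes gave 8 rises and 6 falls among 19 tested (median -0.56), with Lcn2 (at least 21.4-fold higher), Slpi (at least 14.4-fold higher) and Duox2 (4.49 ± 0.77) higher and Ceacam10 (-5.66 ± 0.79) and Lypd8 (-2.69 ± 0.46) lower. Pigr, the transporter of IgA, fell (log2 fold change -1.79 ± 0.43, adjusted p = 0.0031), a call lost without SOX9-mEGFP spheroid replicate 2 or 3 or Halo-NLS replicate 2. Chemokines and epithelial cytokines gave 9 rises and 3 falls among 27 tested (median 1.00): Cxcl5 (at least 19.8-fold higher), Cxcl2 (at least 23.8-fold higher) and Cxcl16 (2.45 ± 0.25) rose, and Ccl25 (-4.37 ± 0.51), which draws lymphocytes to the small intestine, fell.

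Stress genes were called in 8 of 22, 1 of 20 and 6 of 16 members of 3 lists, beside 27.5% of all genes. NRF2 antioxidant genes gave 5 rises and 3 falls among 22 tested (median -0.16), with Slc7a11 (3.82 ± 0.71) and Gclc (2.15 ± 0.36) higher and Nqo1 (-2.57 ± 0.49) and Fth1 (-2.48 ± 0.21) lower, and the rises came to 3 without SOX9-mEGFP spheroid replicate 2 or 3 or Halo-NLS replicate 3. Genes of the unfolded protein and integrated stress responses gave 1 rise among 20 tested (median 0.34), a count that came to 3 without Halo-NLS replicate 1. Heat shock proteins gave 5 rises and 1 fall among 16 tested (median 0.23), where besides Hspb8 the small heat shock genes Hspb1 (at least 51.3-fold higher) and Cryab (at least 148-fold higher) led. Hspe1 (-1.24 ± 0.29), a mitochondrial chaperonin, fell, a call lost with library sizes alone, with the 6 libraries alone and without SOX9-mEGFP spheroid replicate 2 or 3 or Halo-NLS replicate 3.

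Markers of other cell types summed to far less than those of epithelium in both groups. The 10 epithelial markers summed to 283280.3 to 373178 in the Halo-NLS and 433574 to 448958 in the spheroid libraries, 1 of them (Krt18) was called, and Epcam, the epithelial adhesion molecule, was at 35509, 33644 and 30854 in the Halo-NLS and 36162, 36608 and 33232 in the spheroid libraries (log2 difference 0.08 ± 0.15, adjusted p = 0.67). For the 11 fibroblast and mesenchyme markers, of which 5 were tested, the sums were 258 to 312 in the Halo-NLS and 182 to 457 in the spheroid libraries, with Fn1 (4.25 ± 0.69) higher and Pdgfrb (at least 16.5-fold lower) and Vim (-2.56 ± 0.62) lower. The Vim call was lost without SOX9-mEGFP spheroid replicate 2 or 3. Immune markers (3 of 7 tested) summed to 76.9 to 103 in the Halo-NLS and 215 to 378 in the spheroid libraries, and Cd68 (2.57 ± 0.39) and Csf1r (2.33 ± 0.57) rose, Csf1r not without SOX9-mEGFP spheroid replicate 3 or Halo-NLS replicate 1 or 2. Endothelial markers (2 of 6 tested) summed to 36.6 to 83.0 in the Halo-NLS and 26.0 to 49.5 in the spheroid libraries, and smooth muscle markers (1 of 5 tested) to 0 to 8.80 in the Halo-NLS and 0 to 7.10 in the spheroid libraries. Neuronal and glial markers (3 of 6 tested) summed to 116 to 253 in the Halo-NLS and 412 to 1265 in the spheroid libraries, with S100b (4.33 ± 0.65) higher and Tubb3 (-3.25 ± 0.54) lower. Among markers too low to be tested, Ptprc, the leukocyte antigen CD45, had 0, 0 and 17 reads in the control libraries and 4, 5 and 1 in the spheroid libraries, and Cd3e, of T cells, 1, 1 and 34 and 2, 0 and 1. For both, Halo-NLS replicate 3 held the most reads. Whether such cells had a part in the matrix, chemokine and defense results above was not tested.

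The spheroids were also set beside the second spheroid line. Direct tests between the lines called 1683 genes higher in SOX9-mEGFP spheroids (9.58%) and 630 lower (3.59%), a count that came to 408 without SOX9-mEGFP spheroid replicate 2. Against SOX9-mEGFP budding organoids, the same line before its change of shape, 1501 were higher (8.55%) and 1384 lower (7.88%). The 3 comparisons share the SOX9-mEGFP spheroid libraries. Of the 21 intestinal identity factors tested, 12 were higher and 2 lower than in SOX9-Halo spheroids. Hnf4g was at 2.37, 0 and 0.900 in the SOX9-Halo spheroid libraries (at least 203-fold higher, adjusted p = 1.4e-05), and Cdx2 at 97.1, 99.3 and 74.7 (log2 difference 4.83 ± 0.28, adjusted p = 2.1e-08). SOX9-mEGFP spheroids thus lay between the control organoids and the other spheroid line for both factors. Atoh1 was at 1.18, 0.946 and 0 in SOX9-Halo spheroids (at least 101-fold higher, adjusted p = 2.0e-08), and of the 13 goblet products 13 were higher, Muc2 among them (log2 difference 7.11 ± 1.60, adjusted p = 0.0041). Of the 17 brush-border enzymes tested 12 were higher and 1 lower, and Apoa1 was at 7.11, 6.62 and 22.5 (log2 difference 8.52 ± 0.74, adjusted p = 9.1e-07).

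The largest differences between the lines were in single genes. Higher in SOX9-mEGFP spheroids were Zg16 (at least 397-fold higher), a goblet cell lectin, Smpdl3a (at least 307-fold higher), a phosphodiesterase, Efemp1 (at least 892-fold higher), Adgrg7 (12.07 ± 0.76), an adhesion receptor, and Gnai1 (at least 122-fold higher), a G protein subunit. Lower were Fam111a (at least 692-fold lower), Zfp503 (at least 1321-fold lower), Wfdc2 (-11.37 ± 0.54), a protease inhibitor of the airway and genital tract, Dmrt2 (at least 81.7-fold lower) and Cyp21a1 (at least 79.1-fold lower). Adgrg7 was at 13795, 16177 and 9857 in SOX9-mEGFP and 1.18, 1.89 and 5.40 in SOX9-Halo spheroids. Fam111a and Zfp503 fell in SOX9-mEGFP spheroids against Halo-NLS organoids as well, as given above, so these genes stood below both. Dll1 was also lower than in SOX9-Halo spheroids (log2 difference -2.75 ± 0.34, adjusted p = 2.4e-05).

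Of 30 fetal-like markers tested, 3 were higher and 4 lower than in SOX9-Halo spheroids, beside 9.58% and 3.59% of all genes. Those higher included Basp1 (at least 979-fold) and Spp1 (5.12 ± 0.50), and those lower included Il33 (-2.28 ± 0.33). Against the budding organoids of the same line 22 of these markers were higher and 1 lower, beside 8.55% and 7.88% of all genes. Clu and Ly6a were not called between the spheroid lines. Clu was at 63690.2, 69511 and 84508 in SOX9-Halo spheroids and 513, 482 and 825 in SOX9-mEGFP budding organoids, and Ly6a at 9283, 4747 and 5640.2 and 211, 99.7 and 284. Both spheroid lines thus lay above the budding organoids in both genes. Of 26 nutrient transporters tested 13 were higher than in SOX9-Halo spheroids, beside 9.58% of all genes. The counts were nearer that share for the enteroendocrine genes (3 of 20) and the Paneth products (3 of 17). Of 9 HOX genes tested 6 were lower than in SOX9-Halo spheroids, beside 3.59% of all genes.

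**Figure D4:**
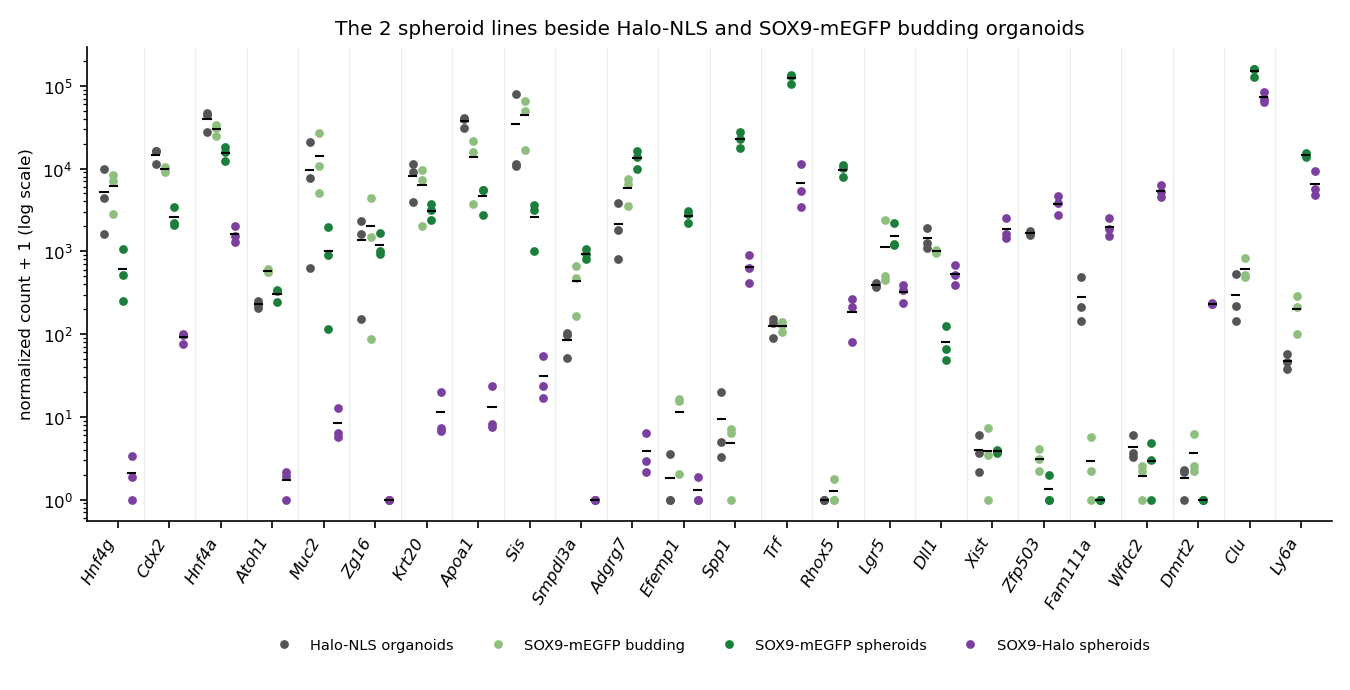
Normalized counts plus 1, on a log axis, of 24 genes in the 3 libraries each of Halo-NLS organoids, SOX9-mEGFP budding organoids, SOX9-mEGFP spheroids and SOX9-Halo spheroids, 1 point per library. Hnf4g, Atoh1, Muc2, Zg16 and Adgrg7 lie far higher in SOX9-mEGFP than in SOX9-Halo spheroids, Zfp503, Fam111a, Wfdc2 and Dmrt2 lower, and Clu and Ly6a lie high in both.

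Whole chromosomes also stood apart. The level of a chromosome was taken in each library as the median, over its tested genes, of log2 CPM less the Halo-NLS mean. Chromosome 18 was at 0.82 ± 0.03 (SD, n = 3) in the SOX9-mEGFP spheroids over 465 genes (0.79, 0.83 and 0.84), the Halo-NLS libraries at -0.08 to 0.14, SOX9-mEGFP budding organoids at 0.30 and SOX9-Halo spheroids at 0.26. Of its genes, 136 were called higher and 40 lower, and 71.2% had a log2 fold change above 0. Chromosome 19 lay at -0.69 ± 0.05 over 656 genes, with 56 called higher and 204 lower, while SOX9-mEGFP budding organoids lay at -0.26 and SOX9-Halo spheroids at -0.03. The X chromosome was at 0.54 ± 0.06 over 479 genes, with 96 higher and 26 lower, against -0.16 to 0.18 in the Halo-NLS libraries, 0.35 in the budding organoids and 0.44 in SOX9-Halo spheroids. The other autosomes lay between -0.17 and 0.37. After removal of a trend with GC content the X chromosome was at 0.23, and with library sizes alone chromosome 19 was at -0.44. DNA copy number was not measured, and the share of the calls on these chromosomes that follows them as a whole was not tested.

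**Figure D5:**
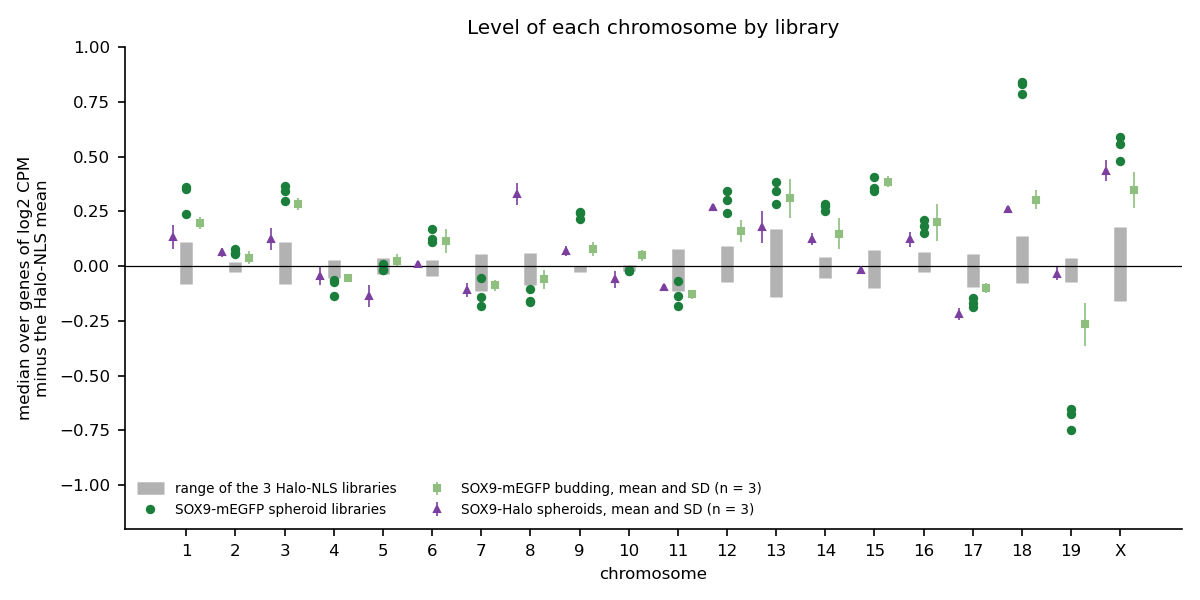
For each chromosome, the median over its genes of log2 CPM minus the Halo-NLS mean: gray bars span the 3 Halo-NLS libraries, circles are the SOX9-mEGFP spheroid libraries, and squares and triangles with SD bars are the means of 3 SOX9-mEGFP budding and 3 SOX9-Halo spheroid libraries. The SOX9-mEGFP spheroid libraries stand above the others on chromosome 18 and below them on chromosome 19.

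Xist, the RNA that coats the inactive X chromosome in female cells, had 2, 1 and 4 reads in the Halo-NLS libraries and 3 in each SOX9-mEGFP spheroid library, although all mice were female. It had 2, 0 and 8 reads in the budding organoids and 2107, 1536 and 1784 in the SOX9-Halo spheroids. Of 4 Y-linked genes read (Ddx3y, Eif2s3y, Kdm5d and Uty), 1 read of Kdm5d in SOX9-mEGFP spheroid replicate 2 was the only count in these 12 libraries. Xist thus told the SOX9-Halo spheroids from the other 3 groups and not the SOX9-mEGFP spheroids from the Halo-NLS organoids. The SOX9-Halo line also held Xist while it still budded, at a mean normalized count of 8391 (SD 6728), beside 2.89 in SOX9-mEGFP budding organoids.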

How the data were processed

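Poly-A RNA of 15 organoid libraries, 3 in each of 5 conditions, was sequenced as 150-base read pairs after pooling 6 wells per library. The authors trimmed reads with cutadapt 4.5, aligned them with STAR to GRCm39 (mm39), kept unique alignments and counted them per Ensembl gene with HTSeq 2.0.2 in union mode without regard to strand. The deposited values are these raw counts, whole numbers with no normalization, for 78298 genes per library, and the rows for reads on no gene or on several were left out of library sizes. Without strand, reads of a gene and of an antisense partner cannot be told apart. The submitters' processing notes also name DESeq2 (2.11.40.8 on Galaxy) and deepTools 3.5.1. Symbols, starts and positions came from GENCODE mouse release 39, which has the same build and lists 78168 of the genes, and promoter sequences from the GRCm39 genome.

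Libraries were grouped by their labels. edgeR 4.0.16 in R 4.3.3 (limma 3.58.1) fitted its quasi-likelihood test to all 15 libraries with 1 coefficient per condition, TMM scaling and filterByExpr, and p-values were adjusted by Benjamini and Hochberg over 17560 genes. A call needed an adjusted p no higher than 0.01, a change of 1 or more on the log2 scale and 10 or more normalized counts on average. With simulated counts for the comparison of SOX9-mEGFP spheroids with Halo-NLS organoids, on 17560 genes with 50 genes at each fold, 4% of 2-fold, 90% of 4-fold and 100% of 8-fold and 16-fold changes were called. The changed genes had a mean of at least 50 counts, and every gene was given the same dispersion. These shares therefore do not cover genes with fewer counts or more spread. Lower bounds used a floor of 3 counts per library and cover counting error only.

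The comparison, the 54 gene lists and the 6 marker lists were chosen with earlier results of these data known, and no list was tested as a set. Named genes came from a rule: a fixed set of key genes, the 10 largest rises and falls among called genes with a mean of at least 100 over the 6 libraries, the 5 most abundant called in each direction, the 3 most abundant and 2 most changed called members of each list, and the 5 largest differences each way between the spheroid lines. Some genes it gave and some promoter sequences are not reported here. Most members it gave that were not called appear only in their list's count, and genes beyond it were named for their role after their values had been seen. The alternatives were RLE size factors, library sizes alone, no filter, DESeq2 1.42.0, the compared libraries alone, the replicate number as a block, removal of a trend with GC content, other thresholds and leaving out each library. SOX9-Halo budding libraries entered the fit and, apart from their mean of Xist, are not analysed here further.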

Additional observations from a re-analysis of the deposited data

Results flagged for a closer look

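Each gene named in the text whose change from Halo-NLS organoids differed between the 2 spheroid lines, by the direct test of SOX9-mEGFP against SOX9-Halo spheroids (edgeR's quasi-likelihood test, the same thresholds), is given with the log2 difference and its standard error, or with a lower bound where every library of the lower line held at most 3 reads. The Halo-NLS libraries are common to both changes and drop out of the difference. The 2 are separate stable lines, and line, tag, second transgene and passage differ together, so that their parts cannot be told apart. These differences were not followed gene by gene under the alternatives given below. Among genes of absorption, SOX9-mEGFP spheroids were higher in Alpi (5.73 ± 0.60), Apoa1 (8.52 ± 0.74), Eps8 (1.27 ± 0.31), Espn (3.63 ± 0.40), Fabp1 (4.96 ± 0.82), Fabp2 (5.50 ± 0.74), Mttp (4.53 ± 0.52), Myo6 (2.52 ± 0.40), Sis (6.37 ± 0.99), Slc10a2 (by at least 247-fold), Slc39a4 (2.48 ± 0.31), Slc5a1 (4.40 ± 0.68), Slc6a19 (2.72 ± 0.54), Treh (5.67 ± 0.65) and Vil1 (2.70 ± 0.27) and lower in Anpep (-1.62 ± 0.38). Among genes of adhesion and the cytoskeleton, SOX9-mEGFP spheroids were higher in Adamts1 (5.06 ± 0.58), Cald1 (3.04 ± 0.71), Cavin3 (by at least 39.1-fold), Cldn15 (4.73 ± 0.68), Cldn2 (1.28 ± 0.15), Lamb1 (5.75 ± 0.57) and S100b (5.58 ± 0.70) and lower in Aqp3 (-4.35 ± 0.68). Among markers of other cell types, SOX9-mEGFP spheroids were higher in Csf1r (4.33 ± 0.66) and Epcam (1.19 ± 0.16) and lower in Tubb3 (-2.63 ± 0.53). Among genes of defense and stress, SOX9-mEGFP spheroids were higher in Ccl25 (2.21 ± 0.47), Cd74 (by at least 17.3-fold), Cxcl5 (by at least 24.3-fold), Duox2 (by at least 223-fold), Hspb1 (by at least 62.8-fold), Lypd8 (8.48 ± 0.69), Nqo1 (3.78 ± 0.54) and Pigr (7.88 ± 0.56) and lower in Cryab (-1.996 ± 0.37), Fth1 (-1.02 ± 0.20), Hspb8 (-1.82 ± 0.30) and Wfdc2 (-11.37 ± 0.54). Among fetal-like, Hippo and AP-1 genes, SOX9-mEGFP spheroids were higher in Basp1 (by at least 979-fold), F3 (3.17 ± 0.46) and Spp1 (5.12 ± 0.50) and lower in Il33 (-2.28 ± 0.33) and Myof (-1.25 ± 0.24). Among genes outside the lists, SOX9-mEGFP spheroids were higher in Adgrg7 (12.07 ± 0.76), Efemp1 (by at least 892-fold), Gnai1 (by at least 122-fold), Itm2a (3.73 ± 0.47), Rhox5 (5.72 ± 0.43), Smpdl3a (by at least 307-fold), Spata6 (1.29 ± 0.24) and Trf (4.19 ± 0.39) and lower in Dmrt2 (by at least 81.7-fold), Fam111a (by at least 692-fold), Xist (by at least 652-fold) and Zfp503 (by at least 1321-fold).

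Among intestinal identity factors, SOX9-mEGFP spheroids were higher in Cdx1 (4.54 ± 0.58), Cdx2 (4.83 ± 0.28), Creb3l3 (7.03 ± 0.69), Gata6 (1.98 ± 0.29), Hnf4a (3.25 ± 0.26), Hnf4g (by at least 203-fold), Klf4 (1.87 ± 0.34), Nr1i2 (6.66 ± 0.49) and Pdx1 (3.22 ± 0.36). Among genes of metabolism, SOX9-mEGFP spheroids were higher in Cox6b2 (by at least 15.8-fold), Cyp4f14 (7.47 ± 0.62), Gstm3 (6.17 ± 0.71) and Sqle (1.08 ± 0.19) and lower in Cyp21a1 (by at least 79.1-fold). Among the groups drawn up after the values were seen, SOX9-mEGFP spheroids were higher in Adh1 (3.92 ± 0.69), Aldh1b1 (4.34 ± 0.36), Btn1a1 (1.59 ± 0.27), Btnl1 (4.57 ± 0.74), Btnl2 (by at least 15.4-fold), Dhrs9 (3.36 ± 0.39), Fbp1 (4.11 ± 1.04), Ly6m (4.19 ± 0.82) and Slc6a4 (by at least 5.16-fold). Among genes of other epithelia, SOX9-mEGFP spheroids were higher in Anxa10 (2.70 ± 0.44), Dsg3 (1.48 ± 0.37), Krt20 (8.26 ± 0.71), Krt6a (1.70 ± 0.39) and Sox6 (1.31 ± 0.32) and lower in Aqp5 (-2.57 ± 0.32), Ivl (-4.26 ± 0.49) and Pgc (-2.81 ± 0.47). Among genes of the secretory lineages, SOX9-mEGFP spheroids were higher in Atoh1 (by at least 101-fold), Cpe (3.85 ± 0.38), Defa24 (4.51 ± 0.39), Guca2a (4.36 ± 0.42), Lyz1 (4.74 ± 0.44), Mmp7 (11.50 ± 0.37), Muc1 (2.26 ± 0.53), Muc2 (7.11 ± 1.60), Neurog3 (by at least 5.59-fold), Reg3g (7.24 ± 0.69), Sytl2 (6.48 ± 0.49) and Zg16 (by at least 397-fold) and lower in Plcg2 (-1.51 ± 0.37) and Ptgs1 (-3.94 ± 0.26). Among genes of signaling pathways, SOX9-mEGFP spheroids were higher in Bmp4 (3.56 ± 0.54), Dll4 (3.26 ± 0.58), Dtx1 (6.58 ± 0.58), Dusp6 (1.87 ± 0.20), Id2 (2.17 ± 0.33) and Spry4 (1.76 ± 0.35) and lower in Dll1 (-2.75 ± 0.34), Notch3 (-1.64 ± 0.41) and Smad6 (-3.78 ± 0.42). Among stem cell and Wnt genes, SOX9-mEGFP spheroids were higher in Lgr5 (2.25 ± 0.55) and Wnt3 (by at least 1.54-fold) and lower in Wnt7b (-2.61 ± 0.31). Wnt3 was near the floor in both lines, with mean normalized counts of 4.67 in SOX9-mEGFP and 0 in SOX9-Halo spheroids. Neurog3 (16.9 and 0.30) and Slc6a4 (15.6 and 2.10) were low as well.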

How the results depend on the processing

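The rise of Sox9 stayed past the threshold under every alternative run (log2 fold change 4.58 to 5.33). Of 256 genes named in the text, 226 kept their direction and their side of the threshold under all 7 whole-table alternatives and with each of the 6 compared libraries left out. Against Halo-NLS organoids the genes called higher numbered 2690 and ran from 2087 to 3522, and those called lower 2133 and from 1705 to 2288, when 1 library was left out. A minimum absolute log2 fold change of 2 left 1542 higher and 1087 lower. Against SOX9-Halo spheroids, 1244 to 1554 genes were called higher and 408 to 566 lower when 1 library was left out, and 320 lower with the log2 minimum of 2. Of 1560 list counts recomputed, 170 moved by more than 1.5 times, most of them counts of few genes. The cause was not tested.

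The level of chromosome 18 was 0.77 with RLE size factors, 1.06 with library sizes alone, 0.55 after removal of the GC trend, 0.94 over genes with a mean of at least 100 and 0.75 to 0.92 when 1 library was left out. Chromosome 19 was at -0.44 with library sizes alone, -0.64 after removal of the GC trend and -0.53 as a mean over genes. The X chromosome was at 0.79 with library sizes alone, 0.23 after removal of the GC trend, 0.62 over genes with a mean of at least 100, 0.84 as a mean over genes and 0.43 to 0.66 when 1 library was left out. 4 genes that were not called changed sign: Dclk1 (-0.033) and Epcam (-0.067) after removal of the GC trend, Xist with library sizes alone (0.23), without a filter (0.042) and when 1 library was left out (-0.41 to 0.59), and Zg16 with library sizes alone (0.068), with the replicate block (1.12) and when 1 library was left out (-0.71 to 0.45).

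Same-numbered spheroid and Halo-NLS libraries did not deviate together (r of their deviations from the group means across genes -0.11, -0.32 and -0.08), so a shared number was not read as a pairing of samples. With the replicate number as a block, 2951 genes were called higher and 2196 lower. Depth sets the floor of 3 reads per library behind each lower bound.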

Other observations

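5 further gene groups were drawn up after the values had been seen, so their counts carry no more than a description. Enzymes and carriers of fructose breakdown and gluconeogenesis were lower in 12 of 14 tested, with 1 higher (median log2 fold change -4.17). They included Khk, the ketohexokinase that opens the pathway, at 58076, 62061 and 57024 in the Halo-NLS and 4029.9, 3117 and 1518 in the spheroid libraries (log2 fold change -4.35 ± 0.50, adjusted p = 7.5e-06), Tkfc (-5.09 ± 0.49), G6pc1 (-7.79 ± 0.74) and Fbp1 (-4.83 ± 0.77). The gene that rose was Pcx (1.02 ± 0.29), pyruvate carboxylase. Of 8 serotonin genes tested 7 fell (median -6.48), among them the transporter Slc6a4 (-6.66 ± 0.50) and Tph1, the enzyme that starts serotonin synthesis in enterochromaffin cells (at least 211-fold lower, adjusted p = 7.1e-07). Of 33 genes of retinoid and alcohol metabolism 17 fell and 2 rose (median -1.07), with Adh1 (-6.37 ± 0.70) and Aldh1b1 (-4.29 ± 0.35) lower and Dhrs9 (3.53 ± 0.40) higher.

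GPI-anchored proteins of the Ly6 family were higher beyond Ly6a, Ly6c1 and Ly6e. Of 12 tested 8 rose and 1 fell (median 4.34). Ly6d, a marker of stratified epithelium and early B cells, was at 43.1, 24.1 and 101 in the Halo-NLS and 11422, 18191 and 13413 in the spheroid libraries (log2 fold change 8.00 ± 0.57, adjusted p = 1.0e-07), and Lynx1 (5.10 ± 0.49) and Ly6m (6.91 ± 0.95) rose. A group of butyrophilin-like genes, whose products hold intraepithelial lymphocytes, and other ligands of these cells was lower in 5 of 10 tested and higher in 1 (median -0.58). Btnl1 (-6.23 ± 0.59) and Btnl2 (-5.41 ± 0.58) were lower and Btn1a1 (3.02 ± 0.29), the milk fat butyrophilin, higher. The falls include H2-T3, which the MHC list holds too.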
